A study of Homo sapiens with 23 samples.

Results

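Clone I4 of the prostate cancer cell line PC-3 was compared with and without doxycycline in experiment B, 1 of the study's 2 experiments. The comparison rests on 6 of the study's 23 libraries, chosen by the clone and the experiment that the labels name: 3 from wells that received 500 ng/ml doxycycline for 72 h and 3 from wells that received none over the same 72 h, all at passage 7. The line is long established and came from a bone metastasis of prostate cancer. All 6 wells held cells of the same single clone, made by transduction with a lentiviral construct (pLVX TetOne-Puro) that carries the cDNA of PARG, joined to the fluorescent protein mClover3 by a cleavable link, behind a promoter switched on by doxycycline. The comparison asked which transcripts differ when this construct is induced. With no cells that lack the construct among the libraries used, what doxycycline does by itself and what PARG does cannot be told apart, and wells of 1 clone carry no spread between clones.

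PARG is the glycohydrolase that cuts poly(ADP-ribose), a chain of ADP-ribose units that PARP1 and related enzymes build on proteins from NAD, mainly at DNA breaks and in chromatin. NF-kB is a family of transcription factors held inactive in the cytoplasm by inhibitor proteins. When inflammatory signals destroy the inhibitors, NF-kB enters the nucleus and turns on chemokines, cytokines and its own inhibitors. PC-3 cells are known for strong NF-kB activity and for secreting chemokines that attract neutrophils.

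Poly(A)-selected RNA was sequenced from strand-specific libraries. The authors' deposited table gives, for each gene, a level (the higher of the 2 group means, in reads per kilobase of exon scaled to library size, RPKM), a signed fold change and a q-value (an adjusted p), and it is the source of every level, fold and q-value below. It holds no value per library, so no spread between wells can be printed, and the lower group mean given for a gene is its level divided by its fold. The 10636 genes with a level of at least 1 RPKM were described, and a gene was called changed when its q-value was under 0.05. Genes whose mean rests on a single read placed the depth, with groups told apart by the sign of the fold, at 19.8 M, 21.48 M and 22.45 M reads (M, mega) for the libraries without doxycycline and at 22.7 M, 22.81 M and 24.6 M reads for those with it. At these depths a gene of 1 RPKM and median exon length corresponds to about 328 reads over the 3 untreated libraries and 361 over the 3 treated ones.

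With doxycycline, 1091 genes were higher (10.3% of those tested) and 972 were lower (9.14%), 2063 in all (19.4%), per the authors' deposited table. The counts of called list members below are to be read beside these shares. Most of these changes were small, with a median fold of 1.26 among the called genes. The large ones pointed mainly downward: 74 called genes were at least 2-fold lower and 30 at least 2-fold higher, and 17 against 1 passed 4-fold. The median log2 fold of all genes tested was 0.0022 on values scaled to library size. A q-value listed as 0 was given for 190 genes, 80 higher and 110 lower. The called share varied little with level, at 17.9% of genes from 1 to 5 RPKM, 20.7% from 5 to 20 RPKM and 19.1% above that.

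**Figure D1:**
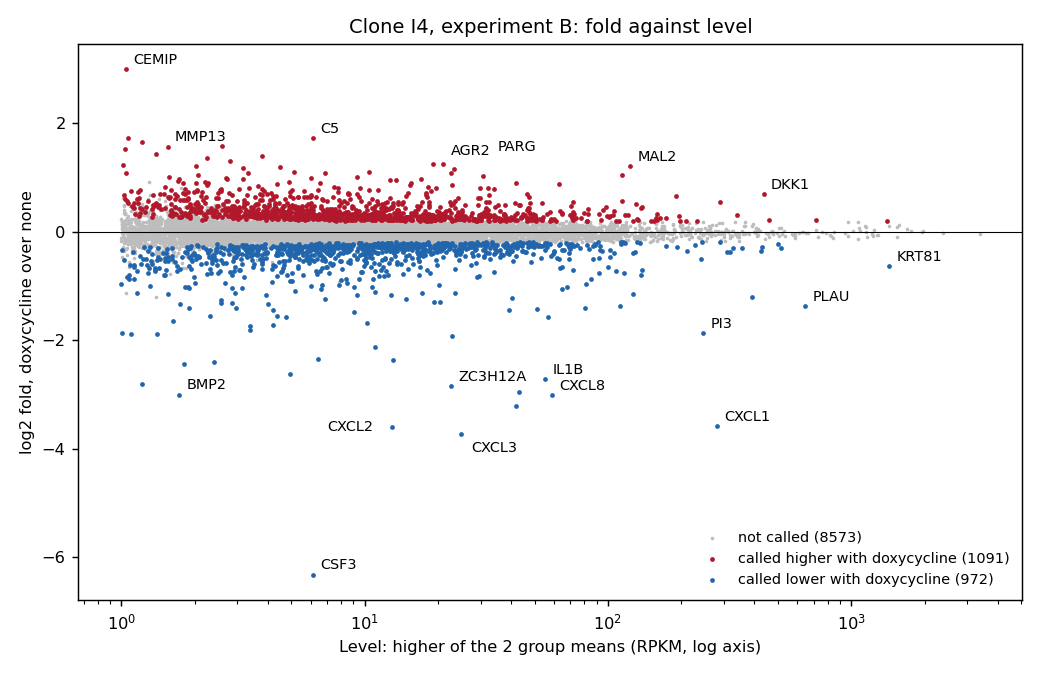
Log2 fold with doxycycline over none (vertical) against the level in RPKM (horizontal, log axis) for the 10636 genes tested, 1 point per gene, coloured by the authors' q-value under 0.05 and the direction. The chemokines, CSF3 and IL1B are among the lowest points, while CEMIP at 2.99 is the highest point.

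PARG, the gene carried by the construct, sets the direction of every fold here: a positive sign was read as higher with doxycycline because its own sign is positive. On that reading PARG stood at 26.9 RPKM without doxycycline and 37.7 RPKM with it, a 1.40-fold difference (q = 1.37e-10) in the authors' deposited table. The table does not separate the construct's cDNA from the cells' own PARG transcript. In GENCODE v29, 22.4% of the 50-base stretches of PARG transcripts also occur in other genes, nearly all of them in the pseudogene PARGP1. Of the 6 measured enzymes that remove ADP-ribose or break it down, PARG was the only one called. Of the 6 genes listed as writers of ADP-ribose, PARP1, the main producer of poly(ADP-ribose), fell from 210.3 to 163 RPKM (log2 fold -0.37, q = 1.50e-06), while PARP2 (-0.16), the cofactor HPF1 (0.18) and the tankyrases TNKS (0.15) and TNKS2 (0.05) were not called. Among 9 mono-ADP-ribosyltransferases PARP12 alone was called, lower at -0.34. NAD-consuming sirtuins and NADK gave no call among 7 genes, and of 5 NAD-making enzymes NMNAT2 was called, higher at 0.35.

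Among the gene lists, the lowest median was that of the chemokines that attract neutrophils, the CXC chemokines with an ELR motif before the first cysteines. All 6 measured members were lower, against 9.14% of all genes tested, with a median log2 fold of -3.40, and together they went from 462 to 43.7 RPKM in the authors' deposited table. CXCL1, the most abundant, stood at 281 RPKM without doxycycline and 23.4 RPKM with it. CXCL8, also called interleukin-8, went from 58.9 to 7.31 RPKM. CXCL5 went from 41.8 to 4.53 RPKM and CXCL6 from 43.2 to 5.55 RPKM. CXCL3 went from 24.8 to 1.87 RPKM and CXCL2 from 13 to 1.06 RPKM. The 6 folds were alike, from 7.79-fold lower for CXCL6 to 13.3-fold lower for CXCL3, each with a q-value listed as 0. CXCL1, CXCL2 and CXCL3 are near copies, and 4.81%, 12.5% and 6.01% of their 50-base stretches occur in another gene, so a small part of their reads could not be assigned with certainty. The seventh member listed, PPBP, was under 1 RPKM. The neutrophil receptors CXCR1 and CXCR2 were listed at 0, and ACKR3, a scavenging receptor for another CXC chemokine, fell by 0.83 on the log2 scale. In RNA from whole wells, fewer cells that express a gene and less of its RNA per cell cannot be told apart.

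**Figure D2:**
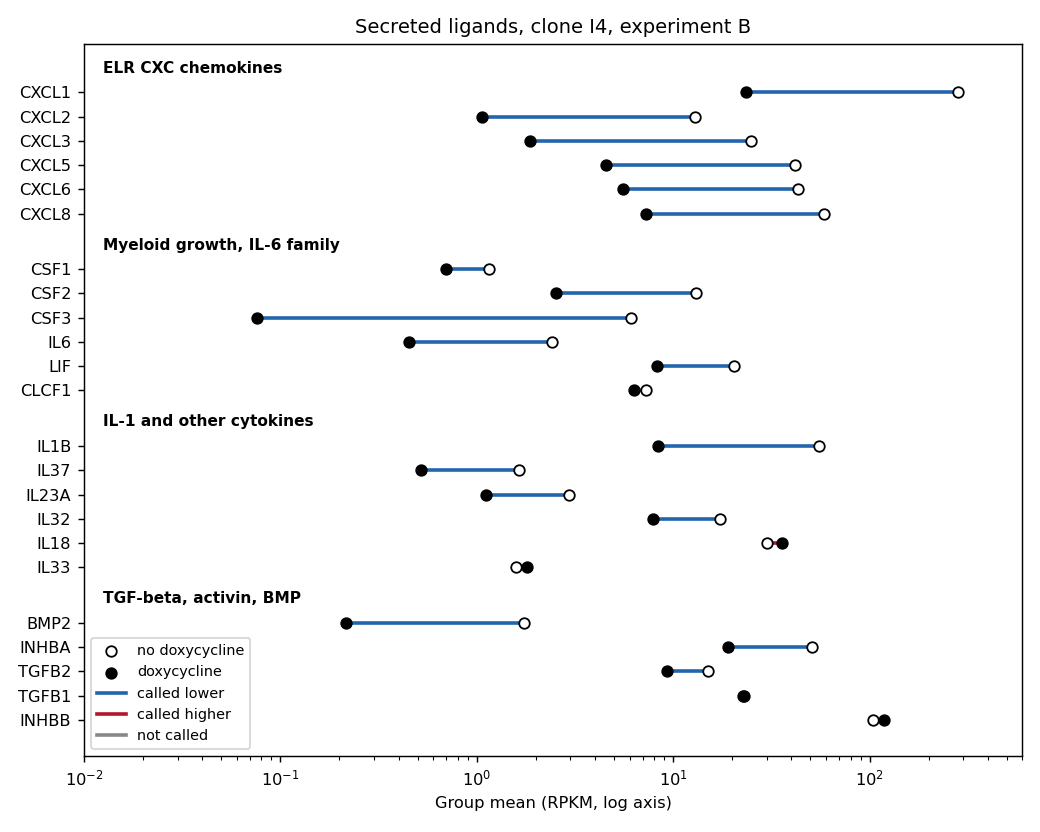
Group means in RPKM (horizontal, log axis) without (open points) and with doxycycline (filled points) for secreted ligands, with the line coloured by the call. The filled points of all 6 ELR chemokines lie 7.79 to 13.3-fold to the left of the open ones, and CSF3 spans the widest interval.

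The promoters of these chemokines are shown because they share 1 short stretch. The 120 bases before each start site are printed 5′ to 3′ on the gene's strand, from RefSeq on GRCh38.p14, with the NF-kB motif GGAATTTCC, or its reverse complement GGAAATTCC, in capitals. NFKBIA, the gene of an NF-kB inhibitor, is added for comparison. CXCL1 (chr4:73869273-73869392, plus strand), CXCL2 (chr4:74099196-74099315, minus), CXCL3 (chr4:74038690-74038809, minus), CXCL5 (chr4:73998678-73998797, minus), CXCL6 (chr4:73836558-73836677, plus) and CXCL8 (chr4:73740449-73740568, plus) lie in 1 cluster on chromosome 4, and NFKBIA (chr14:35404750-35404869, minus) lies on chromosome 14.
CXCL1: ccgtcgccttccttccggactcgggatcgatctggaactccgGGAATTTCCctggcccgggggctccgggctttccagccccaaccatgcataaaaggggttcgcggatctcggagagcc
CXCL2: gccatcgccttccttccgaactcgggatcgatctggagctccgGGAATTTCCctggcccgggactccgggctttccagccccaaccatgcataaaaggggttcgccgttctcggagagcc
CXCL3: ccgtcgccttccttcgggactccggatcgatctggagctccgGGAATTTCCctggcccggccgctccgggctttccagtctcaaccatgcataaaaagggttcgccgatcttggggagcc
CXCL5: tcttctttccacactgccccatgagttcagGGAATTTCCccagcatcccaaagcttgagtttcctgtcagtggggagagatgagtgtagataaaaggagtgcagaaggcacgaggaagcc
CXCL6: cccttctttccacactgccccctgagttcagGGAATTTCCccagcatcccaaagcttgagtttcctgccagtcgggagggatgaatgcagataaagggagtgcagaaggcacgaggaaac
CXCL8: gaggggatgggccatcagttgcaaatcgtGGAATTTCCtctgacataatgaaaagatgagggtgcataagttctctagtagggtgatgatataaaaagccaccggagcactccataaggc
NFKBIA: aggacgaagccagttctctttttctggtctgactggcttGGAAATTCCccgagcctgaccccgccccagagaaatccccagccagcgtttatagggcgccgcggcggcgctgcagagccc

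The motif began 77 or 78 bases before the start in CXCL1, CXCL2 and CXCL3, and 89 to 91 bases before it in CXCL5, CXCL6 and CXCL8. In NFKBIA it began 81 bases before the start on the opposite strand. Windows of 250 bases before to 50 after the start were found for 8567 of the genes tested. Of the 74 genes called at least 2-fold lower, only 49 had such a window. The 9 letters were searched on both strands. They occurred in 9 of 49 windows (18.4%) of genes called at least 2-fold lower, in 0.852% of 704 windows of the other genes called lower, in 0.274% of 6935 windows of genes not called, in 2 of 855 windows of genes called under 2-fold higher and in none of 24 called at least 2-fold higher. The share was 0.472% over all 27305 windows. Of the 36 tested genes that held the motif, 15 were called lower, 19 were not called and 2 were higher (DUSP6 and MAPK6). Besides the 6 chemokines and NFKBIA, the strongly lower genes with the motif were NFKBIZ and ICAM1. The 6 that were less than 2-fold lower were REL, NFKB1, OPTN, FCHSD2, PTPN2 and OAS3. The chemokine genes are paralogs, so these are not independent occurrences, and a match says nothing about binding. The letters counted are the form that these 6 genes share, and the 6 are among the 9, so the 18.4% partly follows from the choice of letters. A TATA motif, TATAAA, was likewise in 30.6% of the windows of strongly lower genes and 4.9% of those of all genes tested. For the AP-1 motif TGAGTCA these shares were 8.16% and 2.73%. They were 2.04% and 10.4% for the E-box CACGTG, and 2.04% and 5.42% for the E2F motif GGCGGGAA.

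Cytokines that drive the growth of granulocytes and macrophages fell with the chemokines. CSF3, the granulocyte growth factor, showed the largest fall of all genes tested in the authors' deposited table, from 6.12 RPKM to 0.0764 RPKM (log2 fold -6.33, 80.2-fold). The treated mean corresponds to about 11.9 reads over 3 libraries against 867 without doxycycline, so the size of this fold is imprecise, and with 1 RPKM added to both means its log2 fold was -2.73, smaller in size than those of CXCL1 (-3.53) and CXCL3 (-3.17). CSF2, which acts on granulocytes and macrophages, went from 13.1 to 2.54 RPKM (5.17-fold). IL6 went from 2.40 to 0.453 RPKM (5.31-fold), and LIF, a relative of IL6, from 20.5 to 8.29 RPKM (2.47-fold). CSF1, the macrophage growth factor, fell by 0.73 on the log2 scale, which made 5 of 6 measured ligands lower (median log2 fold -1.84), with CLCF1 at -0.20 not called. The receptors and signal genes of the same families moved either way, with 2 of 8 higher and 2 lower: LIFR (0.81) and JAK2 (0.32) rose, IL6ST (-0.35) and the feedback inhibitor SOCS3 (-0.45) fell.

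IL1B, the interleukin that itself activates NF-kB, dropped from 55.3 to 8.37 RPKM (6.61-fold lower, q listed as 0 in the authors' deposited table). IL37, an inhibitory relative, was lower as well (-1.65), and these were the only ones of 6 listed interleukin-1 ligands with at least 1 RPKM. Of 9 receptors and adaptors of this pathway, the kinase IRAK2 was called lower at -1.16. MYD88 (-0.08), IRAK1 (0.13) and TRAF6 (0.10) were not called. Among other cytokines, IL23A went from 2.96 to 1.12 RPKM and IL32 from 17.2 to 7.88 RPKM, whereas IL18 rose slightly, from 30 to 35.8 RPKM (log2 fold 0.25). Among 11 other chemokines listed, 10 were under 1 RPKM, including CCL2 and CCL20, and TNF stood below that level too.

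The NF-kB pathway's own genes were lower in large number: of 35 measured, 22 were called lower, against 9.14% of all genes tested, and none higher. Their median log2 fold was -0.47 in the authors' deposited table against 0.0022 over all genes. Of the 5 subunits, RELB (5.2 to 2.44 RPKM), NFKB2 (11.1 to 6.67), REL (1.38 to 0.831) and NFKB1 (14.1 to 9.36) fell. REL shares 43.1% of its 50-base stretches with other genes, so its value is uncertain. RELA, the most abundant at 22.3 RPKM, was not called (log2 fold -0.11). All 5 measured inhibitors and their relatives fell. NFKBIA, the inhibitor that NF-kB induces to shut itself off, went from 112 to 43.0 RPKM, and NFKBIZ, a nuclear co-regulator, from 11 to 2.51 RPKM. BCL3 (-0.77), NFKBIE (-0.67) and NFKBIB (-0.47) fell less. The kinases that act above them were mostly not called: of 8, IKBKE fell by 1.25 on the log2 scale, while IKBKB (-0.21), CHUK (0.01), IKBKG (0.09) and MAP3K7 (0.00) were not called.

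Of 17 feedback regulators of NF-kB, 12 were lower and none higher, against 9.14% and 10.3% of all genes tested. ZC3H12A, a ribonuclease that destroys cytokine mRNAs, fell from 22.7 to 3.14 RPKM (7.23-fold). TNFAIP3, the ubiquitin-editing enzyme A20, went from 10.2 to 3.17 RPKM, and its partner TNIP1 from 81.5 to 41.5 RPKM. BIRC3 and IER3, which both act on cell survival, fell by 1.25 and 1.15 on the log2 scale. BCL2A1, an NF-kB-induced survival protein of the BCL2 family, went from 22.8 to 6.04 RPKM in the authors' deposited table. Of the other 11 measured members of that family BID was lower (-0.42), BCL2L1 was higher (0.20), and MCL1 (0.00) was not called. LCN2, an iron-sequestering antibacterial protein, fell 6.15-fold to 0.804 RPKM, and C15orf48, a mitochondrial protein, fell 5.11-fold to 1.26 RPKM.

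**Figure D3:**
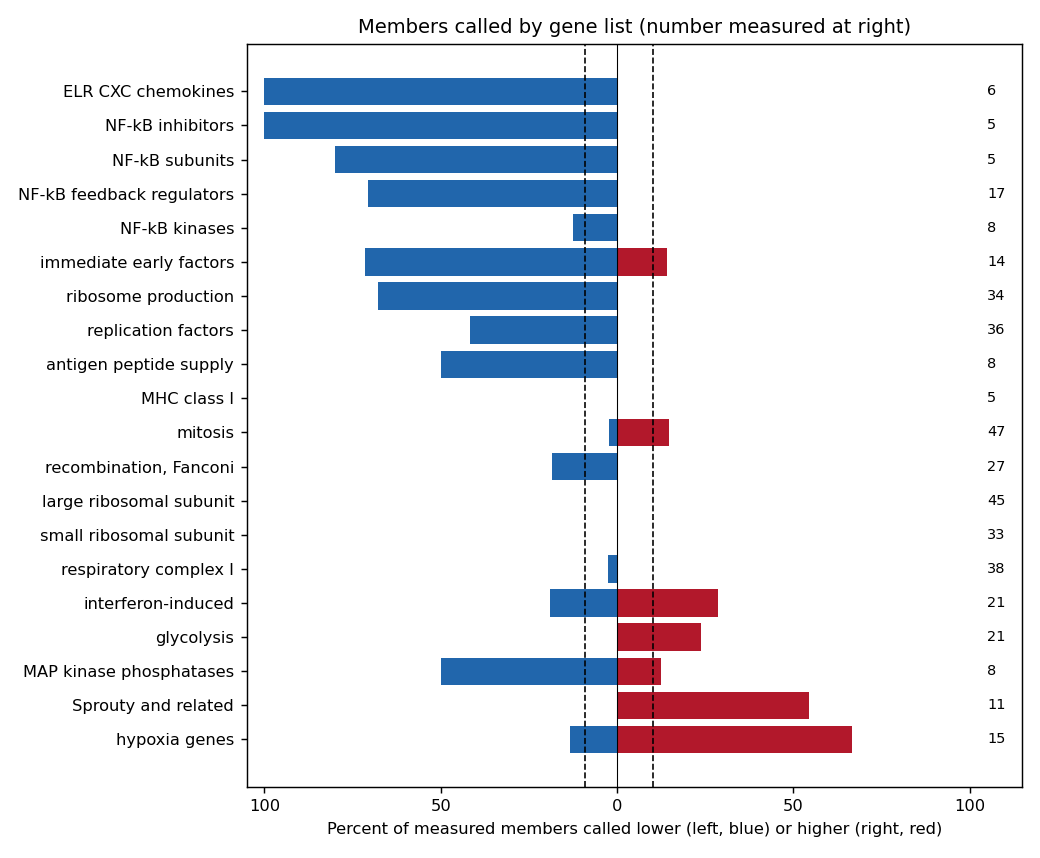
Percent of the measured members of 20 gene lists called lower (left, blue) or higher (right, red), with the number measured at the right and dashed lines at the share among all genes tested (9.14% lower, 10.3% higher). Chemokines and NF-kB genes extend only to the left, hypoxia genes and the list of Sprouty and related genes mainly to the right, and ribosomal protein genes show no bar.

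Molecules by which the cells meet immune cells changed in part. ICAM1, the adhesion molecule for leukocytes, fell from 39.2 to 14.4 RPKM in the authors' deposited table. The ligands of the PD-1 checkpoint were lower too: CD274 (PD-L1) went from 2.86 to 1.64 RPKM and PDCD1LG2 (PD-L2) from 1.32 to 0.657 RPKM. CD276, another checkpoint molecule, was higher (0.28), and CD47, which protects from phagocytosis, was not called (0.01). Genes that supply peptides to MHC class I were lower in 4 of 8 cases, against 9.14% of all genes tested. These were the transporters TAP1 (-0.55) and TAP2 (-0.57), TAPBP (-0.32) and the proteasome subunit PSMB8 (-0.31). None of the 5 class I genes measured was called, and all lay between -0.07 and 0.01.

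Interferon-induced genes did not move as 1 group. Of 21 measured, 6 were higher (28.57%) and 4 lower (19.05%) in the authors' deposited table, against 10.3% and 9.14% of all genes tested. The risen ones were IFIT1 (0.61), IFIT2 (0.49), IFIT3 (0.47), IFI44L (0.28), SAMD9 (0.25) and SAMD9L (0.90). The fallen ones were the RNA sensors DDX58 (-0.55) and IFIH1 (-0.51), the nuclease ISG20 (-0.53) and OAS3 (-0.30). The factors IRF1 (-0.53) and IRF2 (-0.30) and the receptor IFNAR2 (-0.30) fell, while STAT2 (0.06) and IRF9 (-0.01) were not called. IFNAR2 and IRF9 share 41.3% and 43.6% of their 50-base stretches with other genes, so their values are uncertain.

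Genes that answer to growth factor signalling through MAP kinases differed between lists. Sprouty and SPRED proteins restrain the pathway. In a list of 11 measured genes that holds them and others tied to the pathway, 6 were higher and none lower. SPRY1 rose from 1.43 to 3.78 RPKM, SPRY4 from 9.20 to 15.1 RPKM and SPRED2 from 11.8 to 16.4 RPKM in the authors' deposited table. SPRED1 rose by 0.26 on the log2 scale. PHLDA1 (0.30) and the factor ETV5 (0.25), which are not Sprouty or SPRED proteins, rose too. Of 8 measured phosphatases that switch the kinases off, DUSP10 (-0.94), DUSP1 (-0.66), DUSP16 (-0.51) and DUSP7 (-0.23) fell and DUSP6 (0.24) rose. Of 23 listed immediate early and related factors 14 were measured, with 10 lower and 2 higher, against 9.14% and 10.3% of all genes tested. EGR1, EGR2, EGR3, EGR4, NR4A1, NR4A2 and NR4A3 were under 1 RPKM, as were FOS and FOSB. CEBPB went from 19.4 to 7.88 RPKM and its relative CEBPD from 1.90 to 0.715 RPKM. MYC, the growth-promoting factor, went from 34.2 to 25.7 RPKM, and KLF6, KLF10, ETS1, ETS2, BHLHE40, IER2 and ELK3 fell by 0.39 to 0.57 on the log2 scale. KLF4 (0.39) and SOX9 (0.68) rose. Of 9 AP-1 subunits JUNB (-0.82) and JUN (-0.59) fell, and FOSL1, the most abundant at 292 RPKM, was not called (-0.17).

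**Figure D4:**
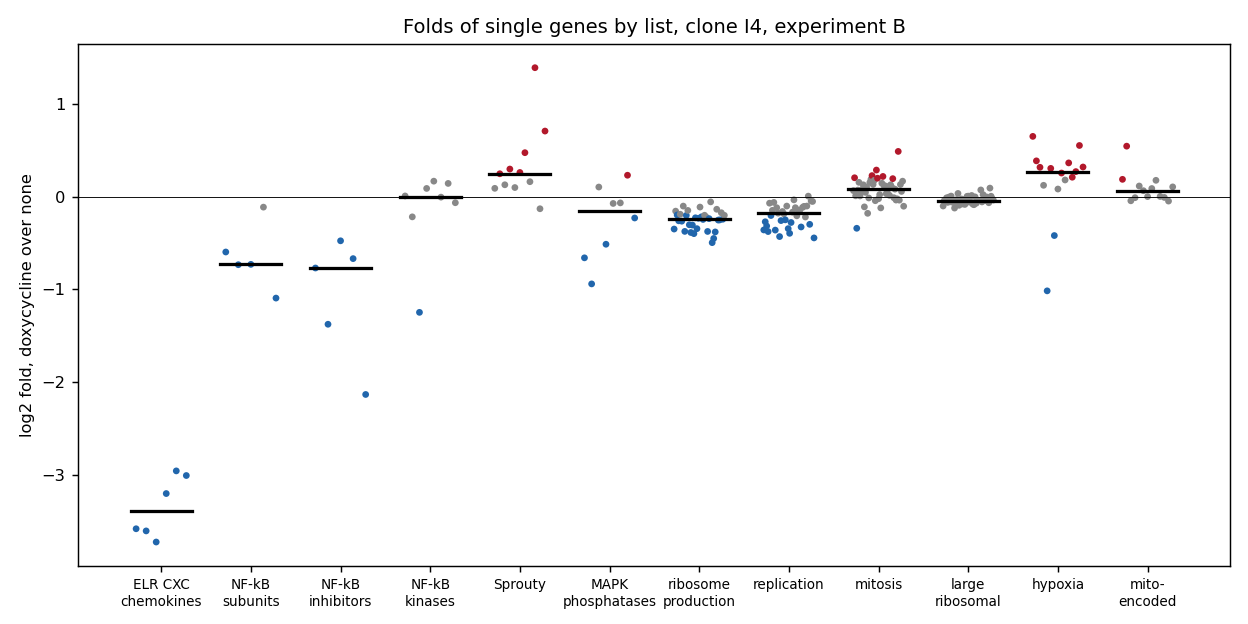
Log2 fold with doxycycline over none for each measured gene of 12 lists, 1 point per gene, red where called higher, blue where called lower and grey where not called, with the list's median as a bar. The chemokine median lies at -3.40, the medians of NF-kB subunits and inhibitors at -0.73 and -0.77, and the NF-kB kinases and the large ribosomal subunit sit near zero.

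Ligands of other growth factor families showed single strong members beside members that were not called. In the TGF-beta superfamily, BMP2 fell from 1.73 to 0.216 RPKM (8.02-fold) and INHBA, the activin A chain, from 51.2 to 19.0 RPKM in the authors' deposited table. TGFB2 fell by 0.69 on the log2 scale, and the other 7 of 10 ligands, TGFB1 (-0.01) and INHBB (0.18) among them, were not called. Of 14 mediators and targets 6 fell, led by TGFBI (-1.34) and PMEPA1 (-0.77), and 4 rose, led by ID2 (0.63) and SMAD6 (0.61). The EGF ligands EPGN (-1.44) and HBEGF (-0.83) fell and NRG2 (0.93) rose, with the receptor EGFR not called (-0.17). Of 10 vascular growth factors 5 fell and 2 rose, against 9.14% and 10.3% of all genes tested. EDN1, the vasoconstrictor endothelin, went from 4.74 to 1.59 RPKM and VEGFA from 23.5 to 14.6 RPKM, while PDGFB rose from 2.30 to 3.86 RPKM. IGFBP3, a carrier of insulin-like growth factors, fell 2.98-fold from 56.7 RPKM. In the Wnt pathway, DKK1, a secreted antagonist, rose from 271 to 436 RPKM, together with WNT5A (0.69), the receptor FZD4 (0.86) and the factor TCF7L2 (0.72), whereas FZD8 (-0.76), WNT7A (-0.56) and the feedback gene AXIN2 (-0.38) fell.

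Secreted proteases and matrix genes included some of the most abundant transcripts that changed. PLAU, the urokinase that activates plasminogen, fell from 646 to 248 RPKM in the authors' deposited table. Its receptor PLAUR went from 18.6 to 10.9 RPKM, and its inhibitor SERPINB2 fell by 1.31 on the log2 scale. Of 7 measured serpins 4 fell, and SERPINB5, known as maspin, rose (0.46). PI3, the elastase inhibitor elafin, went from 246 to 66.9 RPKM, and SLPI, another such inhibitor, from 64.5 to 40.8 RPKM. Of 10 proteases 5 rose and 3 fell, against 10.3% and 9.14% of all genes tested. The collagenase MMP13 rose 2.95-fold to 1.55 RPKM, and the membrane-bound MMP14 fell from 69.3 to 48.9 RPKM. The laminin chain LAMB3 (108 to 65.3 RPKM) fell, while the chain LAMA3 (-0.03) was not called and the integrin chains ITGA6 (0.31) and ITGB4 (0.50) rose. TGM2, a cross-linking transglutaminase, went from 80.5 to 30.3 RPKM, and CTGF, a matrix-associated target of YAP, rose from 15.0 to 30.7 RPKM. Among keratins, KRT81 fell from 1429.7 to 919 RPKM and KRT7 from 116 to 68.8 RPKM, whereas KRT8 (0.35), KRT18 (0.26) and KRT19 (0.28) rose. KRT81 shares 43.7% of its 50-base stretches with other genes, mostly KRT86, which was called lower too (-0.45), so the 2 could not be separated fully.

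The largest rise was that of CEMIP, a hyaluronan-degrading protein, from 0.132 to 1.05 RPKM (7.94-fold, q listed as 0 in the authors' deposited table), which corresponds to about 63.9 and 559 reads. With 1 RPKM added to both means its log2 fold was 0.85, below that of C5 at 1.32, so its rank rests on its low mean without doxycycline. C5, the fifth complement component, rose from 1.87 to 6.14 RPKM (3.29-fold), and the membrane proteins that protect cells from complement, CD55 (0.39) and CD59 (0.48), rose as well. Receptors among the 20 largest rises were the muscarinic receptor CHRM3 (1.72), the bombesin receptor GRPR (10.4 to 23.2 RPKM), the ephrin receptor EPHA7 (1.21) and the ferritin receptor SCARA5 (1.53). Enzymes among them were HPGD, which inactivates prostaglandins (0.884 to 2.26 RPKM), PLA2G7, which inactivates platelet-activating factor (1.43), and the dipeptidase DPP4 (1.10). The most abundant of the 20 were MAL2, a protein of membrane traffic in polarised epithelium (53.6 to 123 RPKM), AGR2, a protein disulfide isomerase of secretory cells (8.89 to 21.1 RPKM), and LXN, a carboxypeptidase inhibitor (8.05 to 19.1 RPKM). The signalling genes SHC4 (1.30) and GNA14 (1.23), the repressor BCL6 (1.18), the actin-binding NEBL (1.17), FAM131B (1.58) and MANSC4 (1.66) completed the set with SPRY1. Among the 20 largest falls, the genes not named so far were DIO3, which inactivates thyroid hormone (-2.45), DAW1 (-1.89) and the read-through transcripts C21orf59-TCP10L (-2.80) and URGCP-MRPS24 (-1.90). A read-through transcript overlaps its neighbours, and URGCP-MRPS24 shares 94.0% of its 50-base stretches with other genes, so its value is uncertain.

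Genes that make ribosomes fell together by small amounts. Of 34 measured nucleolar and RNA polymerase I genes 23 were lower and none higher, against 9.14% and 10.3% of all genes tested. Their median log2 fold was -0.24 in the authors' deposited table. RRP12 (-0.49), RRP9 (-0.45), NOP16 (-0.40) and NOLC1 (-0.38) were the lowest, NOP56 went from 92.5 to 73.0 RPKM, and NPM1, the most abundant at 729 RPKM, was not called (-0.11). The ribosomal protein genes themselves showed no call among 78, between -0.14 and 0.10. The letters CACGTG, an E-box, were in 10 of 28 promoter windows of the ribosome production list (35.7%) and in 10.4% of those of all genes tested. These 28 windows belong to list members called or not, and whether the E-box goes with the falls was not tested.

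Cell cycle genes were called in both directions. Of 36 replication factors 15 fell, against 9.14% of all genes tested, and none rose (median log2 fold -0.18 in the authors' deposited table). They included UHRF1 (41.8 to 30.8 RPKM), MCM10 (-0.43), the origin-binding ORC1 (-0.39), CDC45 (-0.36), the helicase subunit MCM7 (-0.34) and the ribonucleotide reductase subunit RRM2 (-0.30). The letters GGCGGGAA, an E2F motif searched on both strands, were in 34.4% of 32 promoter windows of this list and in 5.42% of all. The 32 windows are those of list members called or not, and a relation of the motif to the falls was not tested. Of 23 regulators of the G1 to S step 8 fell, among them CCNE1 (-0.48), CDC25A (-0.35), E2F1 (-0.28), CDK2 (-0.24) and CDK4 (-0.21). The 5 that rose were CCNG1 (0.49), CCNG2 (0.52) and the CDK inhibitors CDKN1B (0.38), CDKN2B (0.50) and CDKN2C (0.55), whereas the inhibitor CDKN1A fell from 2.91 to 1.76 RPKM. CCND1, at 168 RPKM, was not called (0.09). Of 47 mitotic genes 7 rose, at 14.89% near the 10.3% of all genes tested, and AURKB alone fell (-0.34). Their median was 0.08, and MKI67 (0.02) and PLK1 (-0.01) were not called. Recombination and Fanconi genes included 5 of 27 lower (18.52%, against 9.14% of all genes tested), BRIP1 (-0.31) among them, and none higher.

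Of 15 measured genes listed for the response to low oxygen, 10 were higher and 2 lower in the authors' deposited table, against 10.3% and 9.14% of all genes tested. NDRG1 rose from 77.4 to 114 RPKM, P4HA1, a collagen prolyl hydroxylase, from 127 to 159.6 RPKM, and BNIP3, a mitophagy receptor, from 35.4 to 46.4 RPKM. DDIT4 (-1.01), an inhibitor of mTORC1 that also answers to other stresses, and EPAS1 (-0.42), the oxygen-regulated factor HIF-2alpha, fell. VEGFA, which low oxygen also induces, was counted with the vascular growth factors and not in this list, and it fell. Glycolysis genes had positive folds in 18 of 21 cases, with 5 called higher and none lower, namely ENO2 (0.35), PDK1 (0.34), ALDOC (0.33), PFKFB4 (0.22) and PKM (0.20). Nuclear genes of the respiratory chain gave few calls, with 2 of 76 lower, NDUFA9 (-0.22) and ATP5MC1 (-0.20). Of 13 mitochondrially encoded genes MT-ATP8 rose from 197 to 288 RPKM and MT-ATP6 from 1232 to 1406 RPKM, and these 2 genes overlap on the mitochondrial genome. MT-ATP6 shares 46.7% of its 50-base stretches with the pseudogene MTATP6P1, so its value is uncertain. The metal-binding metallothioneins MT2A (391 to 169 RPKM), MT1X (20.2 to 10.2 RPKM) and MT1F (3.21 to 1.78 RPKM) fell among 6 metallothionein and zinc genes measured. Among stress lists, 1 of 20 ATF4 targets and 3 of 25 heat shock chaperones were lower with none higher, and 3 of 21 unfolded protein response genes were lower and 1 higher, against 9.14% lower and 10.3% higher over all genes. Amino acid carriers and tRNA ligases had 3 of 17 lower and 1 higher, and cholesterol synthesis had 1 lower and 2 higher of 23.

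Of 7 measured prostate factors 3 were higher and 2 lower, and of 15 HOX genes 4 were higher, 2 lower and 9 not called. Over all genes tested 10.3% were higher and 9.14% lower. HOXB13, which is needed for prostate identity, rose from 34.3 to 63.0 RPKM and the pioneer factor FOXA1 from 18.5 to 32.1 RPKM in the authors' deposited table. GATA2 (0.28) rose, and the epithelial factors EHF (-0.96) and ELF3 (-0.47) fell. Of 14 listed products of luminal cells 5 were measured, with 3 higher, the transporter gene SLC45A3 (0.38) among them, and 1 lower. KLK2 and KLK3 were listed at 0, and KLK4, TMPRSS2 and FOLH1 were under 1 RPKM. HOXA13, a posterior HOX gene, rose from 6.97 to 13.5 RPKM, with HOXA10 (0.53) and HOXC13 (0.52) also up, while HOXB9 (-0.87) and HOXC8 (-0.51) fell. Guidance genes of the semaphorin, netrin and slit group were lower in 7 of 15 cases and higher in 2, with NTN4 rising from 10.4 to 18.3 RPKM. SHH, a Hedgehog ligand, fell from 4.56 to 2.75 RPKM.

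Markers of the cell line were checked in the authors' deposited table. KRT8, KRT18, VIM, HOXB13 and MYC were above 1 RPKM, and CDH1, which was also listed as present, was at 0.382 RPKM. The 8 genes known to be low or lost in PC-3 were all under 1 RPKM, with KLK2 and KLK3 listed at 0 and CTNNA1 at 0.0227 RPKM. Markers of blood cells summed to 0.304 RPKM over 8 genes, none of at least 1 RPKM, and of 7 fibroblast markers COL1A1 alone reached 1 RPKM and was not called (-0.12). Of 7 endothelial markers PECAM1 (-0.61) and ROBO4 (-1.16) passed 1 RPKM and were called lower, while CDH5 and VWF were near 0 and ERG was listed at 0.

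The share of genes called higher went up with transcript length. Genes called higher had a median exon length of 6.74 kilobases, against 4.95 for genes called lower and 5.01 for genes not called. Over 5 equal-sized bins of exon length, the median log2 fold went from -0.03 in the shortest to 0.04 in the longest, and the share called higher from 4.53% to 17.2%, while the share called lower stayed between 7.36% and 9.91%. In experiment N of the same clone the share called higher went the other way, from 13.3% in the shortest to 10.1% in the longest, with median log2 folds of 0.03 and -0.02, and in H6 experiment N it went from 15.1% to 6.32%. In H6 experiment B it went from 3.68% to 5.62%, with median log2 folds of 0.02 and -0.02. The part that RNA quality or library making plays in the 1091 higher calls was not tested.

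Set beside the same clone in experiment N, whose 6 libraries are separate, most calls recurred. In the authors' deposited table, 22.9% of the genes tested here were called there, and 1271 genes were called in both with the same sign, which is 61.6% of the calls here and 52.1% of those there. Of the 104 called genes that changed at least 2-fold here, 98 were also called in experiment N with the same sign and none with the opposite one. The median log2 fold of the 74 strong falls was -1.41 here and -1.28 there. CXCL1 had log2 folds of -3.59 and -3.24, CSF3 of -6.33 and -4.90, and CEMIP of 2.99 and 2.67. Passage 7 was used here and passage 5 in experiment N, and no difference between comparisons was tested, since values per library were not analysed here. Only 4 genes had opposite calls: MT-ATP8 (0.55 here, -2.06 there), MT-ATP6 (0.19 and -0.72), SFT2D2 (0.22 and -0.21) and TAF13 (0.23 and -0.21). The 13 mitochondrially encoded genes had a median of 0.07 here and -0.65 in experiment N of the same clone. In clone H6 their median was 0.17 in experiment B and -0.55 in experiment N.

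Fewer genes were called in the other clone, H6, in experiment B, at 10.3% of the genes tested here in the authors' deposited table. The 706 calls shared with the same sign made up 34.2% of the calls in I4 and 64.5% of those in H6, which had 2 untreated libraries in place of 3. PARG itself had a log2 fold of 1.00 in H6 and 0.49 in I4. The chemokines were lower in both clones, with a median of -2.10 in H6 and -3.40 in I4, and the medians of NF-kB subunits were -0.19 and -0.73. All 6 chemokines were called lower in H6 as well, but 1 of the 4 NF-kB subunits that fell in I4 was. GRPR, among the largest rises in I4 at 1.16, was not called in H6 at 0.19. Opposite calls numbered 13, and the largest by the fold in I4 were URGCP-MRPS24 (-1.90 in I4, 4.51 in H6), IL32 (-1.13 and 0.28), AL121722.1 (0.70 and -0.28), IL7R (-0.60 and 0.35), INAVA (-0.49 and 0.34), CHST2 (0.32 and -0.59) and PRSS23 (0.30 and -0.26). IL32 and the receptor IL7R had the same sign in both experiments of I4, at -1.20 and -0.59 in experiment N, and IL7R was called higher in both experiments of H6. AL121722.1 shares 99.0% of its 50-base stretches with other genes, nearly all with LINC00261, so its reads cannot be assigned to it alone. In H6 experiment N, where 20.2% of the genes tested here were called, 857 calls were shared and 32 were opposite.

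**Figure D5:**
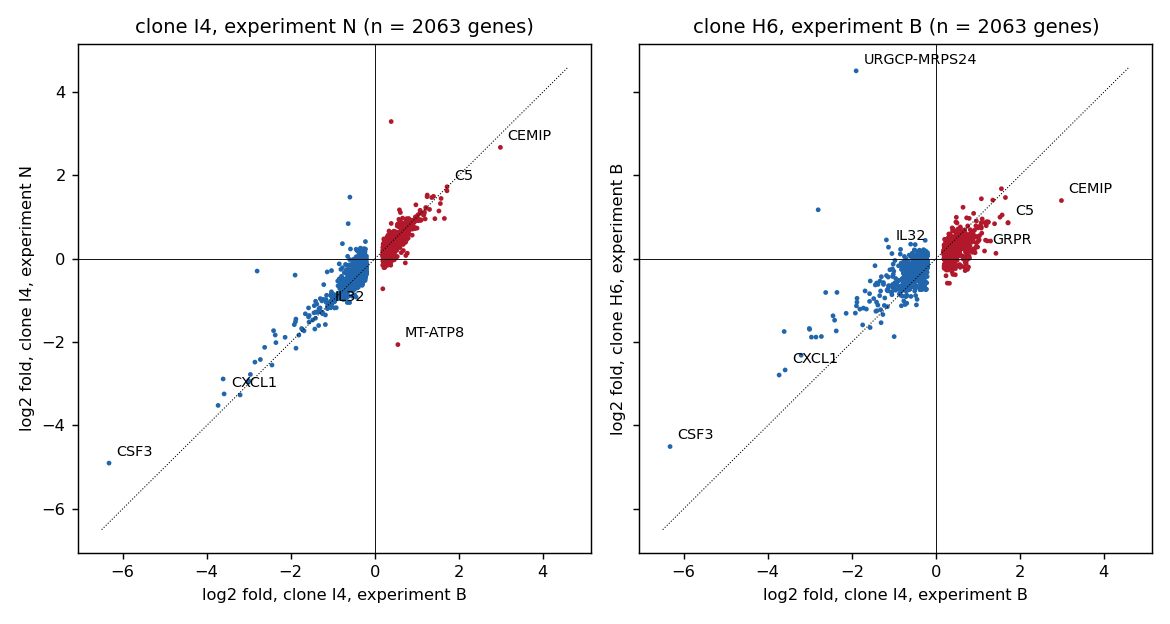
Log2 fold of the 2063 genes called in clone I4, experiment B (horizontal) against their log2 fold in clone I4, experiment N (left) and clone H6, experiment B (right), with the line of equal folds dotted. Most points on the left lie near the line, with MT-ATP8 well below it, and most large folds on the right lie nearer to zero, with URGCP-MRPS24 and IL32 above it.

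In all 4 comparisons 530 of the 2063 calls recurred with the same sign (25.7%), 246 higher and 284 lower. By contrast 604 (29.3%) were called in I4 experiment B and in none of the other 3, and 391 of them were higher. These had small folds, with a median log2 fold of 0.27 for the higher ones and -0.30 for the lower ones, and median exon lengths of 7565 and 4068 bases. The largest rises among them were MANSC4 (1.66), the mitochondrial carrier SLC25A21 (0.77), AC092329.3 (0.74), FMO5 (0.68), KBTBD7 (0.63), FBXO2 (0.61), CADPS2 (0.60) and RNF144B (0.53). The largest falls were C21orf59-TCP10L, AL035078.4 (-1.18), the cystatin CST1 (-1.13), the claudin CLDN14 (-1.03), MT1F (-0.85), CPT1B (-0.81), TLCD1 (-0.79) and the interferon gene IFNE (-0.77). All but AL035078.4 and MT1F of these 16 had a level under 3 RPKM, MANSC4 was positive in the other 3 comparisons too (0.97, 1.47 and 0.81), and AC092329.3, AL035078.4 and CPT1B share 97.5%, 92.6% and 62.4% of their 50-base stretches with other genes.

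Among the most abundant transcripts that changed, those that rose were, besides DKK1 and PKM and the mitochondrial pair, the peroxidase PRDX6 (398 to 459.8 RPKM), TMSB4X (274 to 339), the calpain CAPN2 (203 to 233), YWHAQ (183 to 210.3), PLS3 (172 to 198) and KRT19 (162 to 196) in the authors' deposited table. All of these but DKK1 and MT-ATP8 rose less than 1.3-fold. Those that fell were, besides KRT81, PLAU and MT2A, the IGF carrier IGFBP4 (512 to 415 RPKM), S100A11 (498 to 427), the chaperone HSPA8 (430.0 to 351), ODC1, which starts polyamine synthesis (426 to 333), FKBP1A (356 to 289), the proteoglycan SRGN (326 to 263) and HDGF (317 to 245).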

How the data were processed

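RNA from wells of clone I4 was sequenced by the submitters from poly(A)-selected, strand-specific libraries. Levels deposited by the authors are group means that fit RPKM by their values, and for each comparison the table keeps the higher of the 2 means. The authors' deposited fold is a signed ratio of the 2 means, never between -1 and 1, and positive was read as higher with doxycycline because PARG, the induced gene, is positive in all 4 comparisons. The deposited q-value is an adjusted p, here with the authors' method not stated. The reference hg38 is named in the submitters' processing notes, and the sources used here do not give the aligner, the counter, the annotation, the test or whether counting used strand. The replicates are wells of 1 clone, so the q-values measure at most the spread between wells.

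From the table, a gene was tested when its level was at least 1 RPKM, was called at a q-value under 0.05, and its log2 fold was taken from the signed fold. The lower mean is the level divided by the fold size. No test was added. Depth came from genes whose mean rests on 1 read, assigned to groups by the sign of the fold. Exon lengths and shared 50-base stretches were computed from GENCODE v29, and promoter windows of 250 bases before to 50 after the start came from RefSeq on GRCh38.p14. Python 3.11.15, pandas 2.3.3, numpy 2.4.6 and matplotlib 3.10.9 were used, and the scripts were tested on simulated data. The genes named are PARG, the 20 largest rises and falls, the 10 highest levels each way, members of the gene lists, the 8 largest opposite calls and the 8 largest each way that were called here alone. URGCP-MRPS24 fell under the largest falls. The members and the lists were chosen with earlier results of these data known. The table's 27 rows with a date in place of a name, 17 of them among the genes tested, were counted and not named. Alternatives were another q-value threshold, another minimum level, a minimum fold, protein-coding genes alone, a pseudocount and centring.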

Additional observations from a re-analysis of the deposited data

How the results depend on the processing

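The counts of genes called higher, called lower and shared with the other 2 comparisons stayed within 1.5 times under a q-value threshold of 0.01 or 0.1, a level of at least 5 RPKM and no minimum level, with 735 to 1299 genes higher, 688 to 1195 lower, 905 to 1530 shared with I4 experiment N and 471 to 859 shared with H6 experiment B. A required fold of 1.5 left 156 genes higher, 200 lower, 260 shared with I4 experiment N and 136 shared with H6 experiment B, which this stricter rule brings about by itself. Restricting the lists to members of at least 5 RPKM left 71 of 95 medians within 0.1 on the log2 scale. It turned the sign of the medians of EGF receptors (-0.0135), TGF-beta receptors and antagonists (-0.0428) and Eph and ephrin genes (-0.0106), which had been 0.10 to 0.12, and of EGF ligands (-0.15), S100 proteins (0.12) and myeloid cytokine receptors (-0.13), which had been within 0.05 of zero. The medians of histones, interferon signal genes, autophagy genes and ADP-ribose erasers, all within 0.05 of zero, changed sign as well. Adding 1 RPKM to both group means moved 49 of 81 single log2 folds and reversed none, with CEMIP at 0.85 and CSF3 at -2.73, and centring moved no median. No paired analysis was possible because no value per library was analysed here, and for the same reason no library was left out in turn. Depth limits most the folds of genes with a low mean in 1 group, such as CSF3 with about 11.9 reads over the treated libraries.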

Other observations

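Further lists held called genes in both directions, to be read beside 10.3% higher and 9.14% lower over all genes tested. In the authors' deposited table, the cystine carrier SLC7A11 (0.67 on the log2 scale) and the malic enzyme ME1 (15.8 to 24.1 RPKM) rose among 20 targets of NRF2, of which 4 rose and 1 fell. The large neutral amino acid carrier SLC7A5 fell (-0.44). The autophagy receptors SQSTM1 (100.1 to 63.5 RPKM) and OPTN (-0.52) fell, and they were 2 of the 3 called among 16 autophagy genes. The transferrin receptor TFRC fell from 129 to 99.1 RPKM and the iron carrier SLC11A2 by 0.61 on the log2 scale, while the ferritin chains FTH1 (0.04) and FTL (-0.05) were not called, and of 8 iron genes 2 fell and 1 rose. Among 19 targets of p53, whose gene stood under 1 RPKM here, 6 rose, led by TP53INP1 (0.63), and 3 fell, led by CDKN1A.

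Cell contact genes also moved singly. The desmosomal cadherins DSC2 (0.66) and DSC3 (0.47) rose and the plaque protein PKP1 fell from 127 to 97.2 RPKM in the authors' deposited table. The mesenchymal factor SNAI2 (-0.66) and the hyaluronan receptor CD44 (70.9 to 58.8 RPKM) fell among 13 mesenchymal genes, of which 4 fell and none rose. WWTR1, a relative of YAP known as TAZ, rose from 19.9 to 34.1 RPKM, and WWC1 fell (-0.75). PPARG, a nuclear receptor for lipids, rose from 51.4 to 65.0 RPKM. The prostaglandin receptor PTGER2 rose (0.67), and the synthase PTGES fell (-0.59).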
